A study of Mus musculus with 9 samples.

Results

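The EGF family was followed here as 10 genes, the ligands Hbegf, Areg, Ereg, Tgfa, Egf, and Btc and the receptors Egfr, Erbb2, Erbb3, and Erbb4. The 10 genes were taken by name from the 32195 genes of the UMI table, by a rule that uses no measured value, although earlier results of these data were known when the family was chosen. The table holds scRNA-seq of whole mouse epididymis, the coiled duct in which sperm mature, cut into caput, corpus, and cauda. The animals were C57BL/6 mice (C57BL/6J in the study's methods) without treatment or transgene, aged 42 days (P42, when the first wave of sperm passes) or 56 days (P56, adult). Each library came from several mice pooled in 1 tube, so that differences between individual animals were not measured. P42 had 1 library per segment and P56 had 2 (replicates 1 and 2), and the segments of 1 pool share their animals.

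Ligands of the EGF family are made as membrane-anchored precursors and are released by ADAM metalloproteases, a step known as shedding. They bind ErbB receptor tyrosine kinases, which pair on the cell surface and signal through RAS and ERK. Egfr binds the ligands followed here, Erbb3 and Erbb4 bind neuregulins, Erbb2 has no known ligand of its own and acts as a partner of the others, and Erbb3 has little kinase activity and signals through its partners. In the epididymis, ERK activity in the epithelium of the proximal caput is known to be needed for the differentiated state of that region, and basal cells lie at the foot of the epithelium, below the principal cells that line the lumen.

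After filtering, 41397 cells with 261433376 UMIs were used (18848962 to 40609084 UMIs and 4082 to 4898 cells per library). Before filtering, 143 of 44631 distinct barcode sequences occurred in more than 1 library. Cells were grouped by clustering without the 10 genes, and a cluster was called principal-like, basal-like, clear/narrow-like, and so on from its markers. In clusters of the other names the median log2 fold of the own markers over the rest of the library was 2.65 to 5.01. In the 9 principal-like clusters it was only -0.69 to 0.75, so that the principal markers as a whole did not stand out there, 5 of the 9 had a higher median for the markers of another type, and the name rests on 3 or more single markers that were raised. A further 3269 cells stayed unnamed. The corpus of P56 replicate 2 held 1408 unnamed cells against 90 to 526 in the other libraries, the lowest share of principal-like cells (35.7%), and the highest median share of mitochondrial UMIs (23.9%). Caput libraries had a median share of 5.99% to 6.39%, corpus libraries of 14.3% to 23.9%, and cauda libraries of 10.8% to 17.2%, and its part in the segment differences was not tested. The P42 corpus and cauda libraries also stood apart. Their median UMIs per cell were 3402 and 3064, against 4470 to 7638 elsewhere, 30.5% of the P42 cauda cells were fibroblast-like against 1.06% to 14.3% elsewhere, and only 38 of its cells were basal-like. Summed fibroblast markers reached 14411 CPM in the principal-like cells of the P42 cauda, against 144 to 1377 CPM in the other 8 libraries. Each segment difference and averaged age difference below was therefore also computed without these 2 libraries, and the value is given where a call was lost or its direction turned.

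Levels are given in CPM, the UMIs of a gene per 1000000 UMIs of the same cells summed over a library, with globin genes left out of the total. Where 3 values follow a segment, they are those of P42, P56 replicate 1, and P56 replicate 2 in that order. CPM values compare a gene between samples, not genes with each other. Fold changes and adjusted p came from edgeR's quasi-likelihood test over all genes with Benjamini-Hochberg adjustment and TMM scaling, and for this reason a fitted fold can differ from the ratio of the CPM values.

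The family was unevenly detected. Hbegf, the heparin-binding ligand, had 26794 UMIs in all and was found in 26.1% of cells, and it ranked 1236 among all genes by UMIs. Egf had 3235 UMIs, Tgfa 666, Areg 611, Btc 398, and Ereg 31, the last in 18 cells. Among the receptors, Erbb3 had 4026 UMIs, Egfr 2787, Erbb2 1797, and Erbb4 147. Ereg and Erbb4 were near the limit of detection, and their levels in single populations rest on few UMIs.

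**Figure D1:**
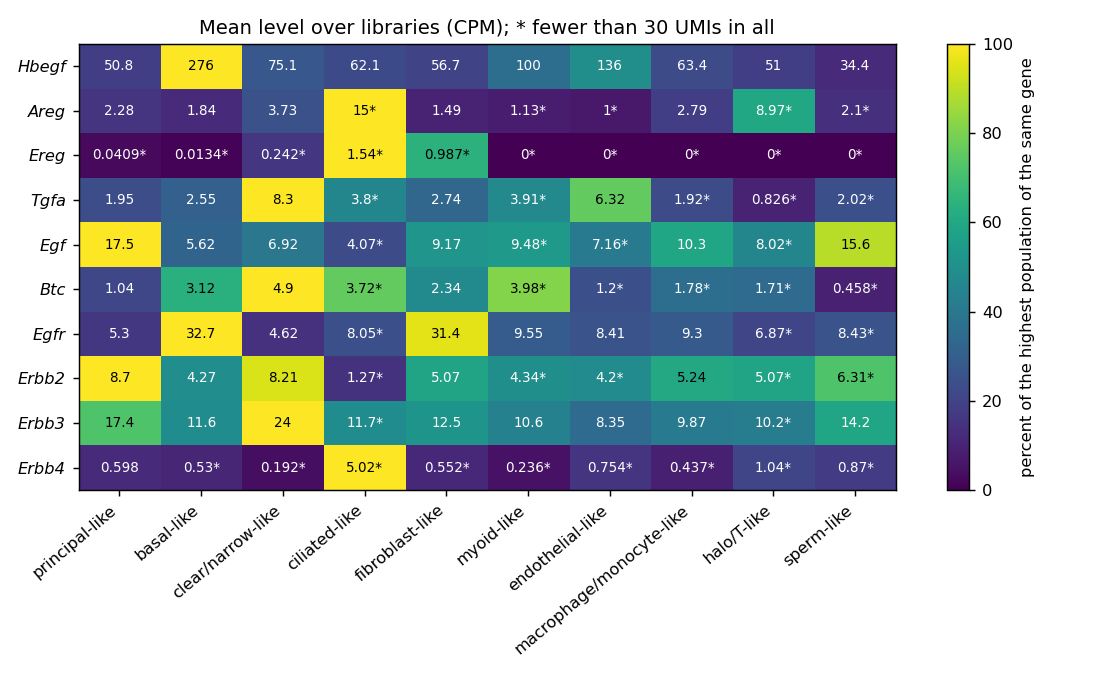
Heat map of the 10 genes (rows) in 10 cell populations (columns). Each cell prints the mean CPM over libraries with at least 10 cells of the population, its colour gives this mean as a percentage of the gene's highest population, and an asterisk marks fewer than 30 UMIs in all. Hbegf was highest in basal-like cells (276 CPM), Egfr in basal-like (32.7 CPM) and fibroblast-like cells (31.4 CPM), Egf in principal-like cells (17.5 CPM), and Tgfa, Btc, and Erbb3 in clear/narrow-like cells among populations with enough UMIs.

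Hbegf was highest in basal-like cells. Its mean level over 9 libraries was 276 ± 229 CPM (SD, n = 9) in basal-like cells, followed by 136 ± 77.8 CPM in endothelial-like, 100 ± 83.8 CPM in myoid-like, 75.1 ± 76.0 CPM in clear/narrow-like, and 50.8 ± 29.0 CPM in principal-like cells. Neighbours in this order overlapped. Within a library, basal-like cells exceeded clear/narrow-like, macrophage/monocyte-like, fibroblast-like, and principal-like cells in 9 of 9 libraries, and endothelial-like cells in 8 of 9. Myoid-like and ciliated-like cells were not below basal-like cells in every library. As a percentage of the basal-like level of the same library, cauda myoid-like cells ranged from 30.3% to 126%. Myoid-like cells of the other segments reached at most 88.7%. Ciliated-like cells, present in caput libraries only, ranged from 33.1% to 134%.

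Hbegf UMIs were found in 61.1% of basal-like cells (95% exact interval 59.6% to 62.6%, median depth 6356 UMIs), against 21.5% of principal-like cells and 13.9% of sperm-like cells (median depth 4476 UMIs), which carry little RNA of their own. With every cell thinned to 1000 UMIs, and 496 shallower cells left out, the shares were 26.1%, 4.50%, and 2.58%. These shares pool all libraries, and 1087 and 1002 of the 4175 basal-like cells came from the 2 libraries of the P56 cauda, where Hbegf was highest. By library the share was 21.1% to 84.7% of basal-like and 6.50% to 45.9% of principal-like cells, and it was higher in basal-like cells in 9 of 9 libraries. Intervals on shares cover counting error only. Basal-like cells held 11814 of the 26794 Hbegf UMIs although they were 4175 of the 41397 cells.

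Tgfa and Btc were highest in clear/narrow-like cells, the acid-secreting cells of the epithelium. Tgfa, which binds Egfr, averaged 8.30 ± 3.99 CPM (SD, n = 9) there, with a range of 3.64 to 16.5 CPM, against 1.95 ± 0.575 CPM in principal-like and 2.55 ± 1.19 CPM in basal-like cells. The ranges of clear/narrow-like and principal-like cells did not overlap, and clear/narrow-like cells were higher than basal-like cells in 9 of 9 libraries. Endothelial-like cells came next with 6.32 ± 3.94 CPM from 34 UMIs and were exceeded in only 6 of 9 libraries. Btc, betacellulin, averaged 4.90 ± 3.80 CPM in clear/narrow-like cells against 1.04 ± 0.597 CPM in principal-like cells, and of these 2 it was higher in clear/narrow-like cells in 9 of 9 libraries. Basal-like cells averaged 3.12 CPM. In the P42 cauda, 2 of 38 basal-like and 1 of 123 clear/narrow-like cells held a Btc UMI.

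Egf, the founding ligand of the family, was highest in principal-like cells, at 17.5 ± 13.8 CPM (SD, n = 9). It was lower in fibroblast-like (9.17 ± 8.71 CPM), clear/narrow-like (6.92 ± 5.80 CPM), and basal-like cells (5.62 ± 5.10 CPM) in 9 of 9 libraries each. Sperm-like cells, at 15.6 ± 9.77 CPM from 38 UMIs, did not differ from principal-like cells beyond their spread, since principal-like cells were higher in only 4 of 6 libraries. An Egf UMI was found in 8.75% of principal-like and 6.11% of sperm-like cells, and after thinning to 1000 UMIs in 1.49% and 2.06%. These shares pool libraries that the cell types fill unequally. In the corpus of P42, P56 replicate 1, and P56 replicate 2, the share was 11.3%, 20.6%, and 19.7% of principal-like against 4.35%, 11.1%, and 10.1% of sperm-like cells, and after thinning 2.43%, 3.82%, and 3.29% against 1.45%, 4.12%, and 2.02%. Principal-like cells were thus higher in 3 of 3 corpus libraries before and in 2 of 3 after thinning.

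Areg and Ereg, which lie next to each other and near Btc on chromosome 5, were sparse. Areg, amphiregulin, averaged 3.73 ± 4.98 CPM in clear/narrow-like cells (117 UMIs) and 2.28 ± 2.31 CPM in principal-like cells (245 UMIs), with wide overlap. Ciliated-like cells, found only in the caput, gave 11.9, 26.2, and 6.92 CPM from 15 UMIs, and the halo/T-like cells of the P42 cauda gave 54.3 CPM. These lymphocytes had no Areg UMI in 5 of the 9 libraries, where 0 UMIs allow up to 9.58 to 28.5 CPM. Ereg, epiregulin, had 14 of its 31 UMIs in fibroblast-like cells, with 7.36 CPM in the P42 caput, where 2 of 265 cells held its 11 UMIs. No Ereg UMI was found in the fibroblast-like cells of 6 libraries, where 0 UMIs allow a level of up to 0.404 to 9.76 CPM (3 UMIs of the total). These limits were 0.404, 0.943, and 0.990 CPM in the 3 cauda libraries, below the level of the P42 caput, and 7.05 and 9.76 CPM in the P56 caput, where a difference from the P42 caput was not detectable at this depth. As 2 cells carry the P42 caput level, no order of the libraries is read from it.

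Egfr, a receptor of the ligands above, was highest in the basal-like cells of the epithelium and the fibroblast-like cells of the stroma. Basal-like cells averaged 32.7 ± 14.4 CPM (SD, n = 9) and fibroblast-like cells 31.4 ± 21.4 CPM, and basal-like cells were the higher of the pair in 6 of 9 libraries, so that these 2 did not differ beyond their spread. Every other population was lower than basal-like cells in each library that held it. Myoid-like cells, the next in order, reached 9.55 ± 8.79 CPM, principal-like cells 5.30 ± 6.15 CPM, and clear/narrow-like cells 4.62 ± 2.10 CPM. An Egfr UMI was found in 17.8% of fibroblast-like and 16.6% of basal-like cells, and in 3.22% of halo/T-like and 2.31% of principal-like cells. After thinning these shares were 4.66%, 3.26%, 1.29%, and 0.455%. They pool all libraries, and 1373 of the 3650 fibroblast-like but 38 of the 4175 basal-like cells came from the P42 cauda. By library the unthinned share was 7.18% to 26.0% of fibroblast-like and 8.28% to 27.9% of basal-like cells, and basal-like cells were higher in 8 of 9 libraries.

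Erbb2, Erbb3, and Erbb4 were spread over more populations. Erbb2 averaged 8.70 ± 4.69 CPM (SD, n = 9) in principal-like and 8.21 ± 3.39 CPM in clear/narrow-like cells, which exceeded each other in 5 and 4 of 9 libraries, and 4.27 ± 3.28 CPM in basal-like cells. Erbb3 averaged 24.0 ± 10.9 CPM in clear/narrow-like and 17.4 ± 6.66 CPM in principal-like cells, the former being higher in 7 of 9 libraries. Basal-like cells, at 11.6 ± 3.86 CPM, lay below clear/narrow-like cells in 9 of 9. Erbb4 averaged 0.598 ± 0.598 CPM in principal-like cells from 68 UMIs. In ciliated-like cells it gave 10.5, 0, and 4.61 CPM from 9 UMIs, which is too few to order the populations, and the 0 allows up to 19.7 CPM.

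In single-cell libraries, free RNA gives UMIs to cells that do not express a gene, and the levels were therefore set beside the markers of the source population. In the corpus, fibroblast-like cells carried 32.0% to 65.9% of the Egf level of principal-like cells and 32.9% to 61.4% of the summed principal markers, and basal-like cells carried 19.9% to 35.3% of Egf and 27.7% to 46.3% of the markers. Egf outside principal-like cells thus stood at about the level of the principal markers there. Egfr in basal-like cells was different, at 46.3% to 180% of the level of fibroblast-like cells where the fibroblast markers were at 1.34% to 27.3%. Egfr in principal-like cells also lay above the fibroblast markers. It stood at 8.30% to 21.2% in the caput (markers 1.76% to 3.46%) and 6.28% to 9.36% in the corpus (markers 1.16% to 3.24%). In the cauda it was 19.5% to 29.8% (markers 3.03% to 17.5%). Corpus myoid-like cells had 0% with markers at 5.43% to 20.8%. Hbegf in endothelial-like cells stood at 37.0% to 151% of the level of basal-like cells with basal markers at 9.45% to 31.7%, and in cauda clear/narrow-like cells at 32.7% to 38.9% with basal markers at 7.63% to 20.4%. Principal-like cells were nearer to the markers in the corpus (7.17% to 15.0%, markers 5.21% to 7.84%) and cauda (13.9% to 50.4%, markers 7.31% to 24.6%). In the caput they stood at 36.1% to 59.8% with markers at 6.97% to 9.31%. Corpus fibroblast-like cells had 6.77% to 17.1% with markers at 4.19% to 9.03%. The part of free RNA in these levels was not tested.

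**Figure D2:**
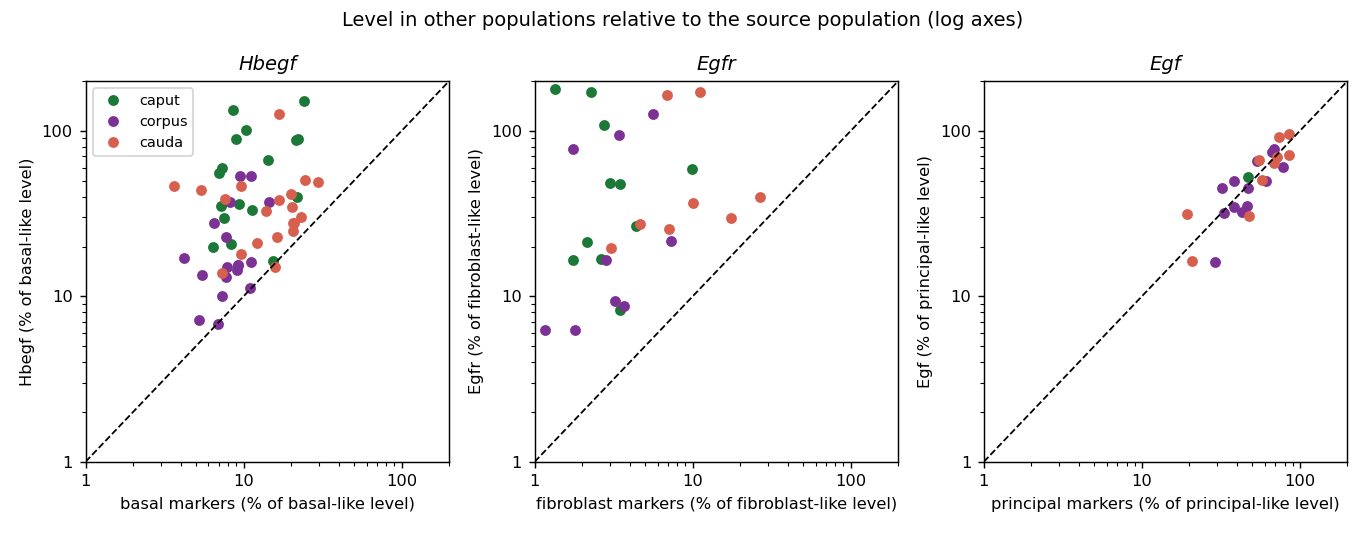
Level of Hbegf, Egfr, and Egf in each other population as a percentage of the level in its source population (vertical axis) against the same percentage for the summed markers of the source (horizontal axis). Both axes are logarithmic, each point is 1 population of 1 library with at least 10 UMIs of the gene, and the dashed line marks equality. Points of Egf lie around the line, while most points of Hbegf and the basal-like, principal-like, and clear/narrow-like points of Egfr lie above it.

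The first comparison asked whether the family differs between caput, corpus, and cauda. A gene was called when its adjusted p was below 0.05 and the fitted log2 difference of its highest over its lowest segment reached 1, and the fit held a term for each pool. In the sum of all cells, 5 of 9 tested members were called (24.7% of all genes tested were called), and Ereg was too low to be tested. In sums of all cells, fewer cells of a type and less RNA per cell cannot be told apart. In principal-like cells 7 of 9 were called (33.8% of all genes), in basal-like cells 3 of 5 (16.5%), and in clear/narrow-like cells 2 of 7 (11.8%). In fibroblast-like cells 0 of 4 were called (6.67% of all genes), although Hbegf and Egf had an unadjusted p of 0.00430 and 0.00826 in edgeR and DESeq2 called 2. In macrophage/monocyte-like cells 0 of 4 were called (6.96%), although Hbegf, Egf, and Erbb3 had an unadjusted p below 0.05 in edgeR and DESeq2 called 2. The median log2 difference was 2.11 over the 9 members in principal-like cells and 0.87 over all genes tested.

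The 5 members called in all cells were Egf and Erbb4, highest in the corpus, Btc, highest in the caput, and Egfr and Erbb2, highest in the cauda. The counts depended on which pools were used. Without P56 replicate 1 and without P56 replicate 2, the count was 0 and 1 in all cells, 4 and 5 in principal-like, 0 and 0 in basal-like, and 0 and 0 in clear/narrow-like cells, and the number of all genes called fell from 4566 to 612 and 1226 in all cells. Without the P42 pool the count was 8 in all cells, 8 in principal-like, 4 in basal-like, and 3 in clear/narrow-like cells, 2 in fibroblast-like, and 3 in macrophage/monocyte-like cells, and Hbegf was among the added genes in each. The share of all genes called without this pool is not given here, so the rise is not read as particular to the family.

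Egf was highest in the corpus. In principal-like cells it measured 4.82, 3.49, and 5.65 CPM in the caput, 30.9, 39.6, and 34.5 CPM in the corpus, and 10.8, 14.0, and 14.1 CPM in the cauda. The 3 segments did not overlap, and the order corpus, cauda, caput was that of all 3 pools. The fitted log2 difference between corpus and caput was 3.02 (SE 0.243, adjusted p = 0.000109). Clear/narrow-like cells (log2 difference 2.24, SE 0.517, adjusted p = 0.0361) and the sum of all cells (log2 difference 2.81, SE 0.314, adjusted p = 0.00219) had the same order in each pool. Basal-like cells were also called (log2 difference between corpus and caput 3.51, SE 0.594, adjusted p = 0.00175), with the corpus highest and the caput lowest in both P56 pools. In the P42 pool the order was not measured, since the basal-like cells of the cauda held 0 Egf UMIs, which allows up to 19.5 CPM, against 1.41 CPM from 4 UMIs in the caput. The basal-like level was 6.14, 14.0, and 11.1 CPM in the corpus, at or below the percentage of the principal markers in the same cells. The call in principal-like cells held without either P56 replicate (log2 difference 2.79 and 3.08), while adjusted p rose to 0.0953 and 0.0559 in basal-like and to 0.352 and 0.142 in clear/narrow-like cells without P56 replicate 1 and 2, and to 0.0653 without P56 replicate 1 in all cells.

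Areg was highest in the cauda in principal-like cells. It measured 1.17, 0.739, and 0.374 CPM in the caput, 0.715, 2.01, and 1.42 CPM in the corpus, and 7.83, 3.12, and 3.12 CPM in the cauda. Every cauda library was above every library of the other segments, and the fitted log2 difference between cauda and caput was 2.78 (SE 0.502, adjusted p = 0.00578). Without P56 replicate 1 the adjusted p was 0.0615, and with cells assigned by a direct marker gate in place of clusters it was 0.0690. In clear/narrow-like cells, where too few UMIs were present for the test, Areg had its highest value in the P42 caput at 16.5 CPM, against 4.60 and 2.40 CPM in the P56 caput and 0 to 2.97 CPM in the other 6 libraries (the 0, in the P42 cauda, allows up to 4.50 CPM).

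Btc was highest toward the caput. In clear/narrow-like cells it measured 8.49, 11.8, and 8.81 CPM in the caput, 3.96, 2.81, and 2.32 CPM in the corpus, and 3.0, 1.22, and 1.70 CPM in the cauda. The caput did not overlap with the other segments, and the fitted log2 difference between caput and cauda was 2.11 (SE 0.407, adjusted p = 0.0114). In principal-like cells Btc was lowest in the cauda at 0.846, 0.240, and 0.0557 CPM, with 0.996 to 1.79 CPM in the other segments (log2 difference between corpus and cauda 2.13, SE 0.587, adjusted p = 0.0324). Without P56 replicate 1 and 2, the adjusted p was 0.305 and 0.105 in clear/narrow-like and 0.229 and 0.204 in principal-like cells. With the direct marker gate Btc was too low to be tested in principal-like cells. Tgfa, the other ligand of clear/narrow-like cells, was not called in any population, with a log2 difference of 0.26 (SE 0.421) in all cells and 0.70 (SE 0.317) in principal-like cells.

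Hbegf rose steeply toward the cauda in both P56 pools. In basal-like cells it measured 185, 53.9, and 52.2 CPM in the caput, 154, 276, and 459 CPM in the corpus, and 84.7, 656, and 565 CPM in the cauda. In both P56 pools the caput had the lowest level of the 3 segments, and in the P42 pool the level was lowest in the cauda, where it rests on 13 UMIs in 38 cells. Over all 3 pools the segment difference was not called in any population, with a log2 difference of 2.44 (SE 0.774, adjusted p = 0.0941) in basal-like, 1.53 (SE 0.499, adjusted p = 0.0729) in principal-like, and 1.87 (SE 0.849, adjusted p = 0.160) in all cells. Without the P42 pool it was called in all 6 populations tested. The log2 difference between cauda and caput was then 3.95 in basal-like cells (adjusted p = 3.46e-10), 4.28 in clear/narrow-like cells (adjusted p = 1.54e-12), 3.81 in fibroblast-like cells (adjusted p = 1.98e-08), 2.88 in macrophage/monocyte-like cells (adjusted p = 1.96e-08), 1.71 in principal-like cells (adjusted p = 1.41e-07), and 3.23 in all cells (adjusted p = 6.81e-07).

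The P56 gradient was seen outside the basal-like cells as well, where the part of free RNA from basal-like cells was not tested. In P56 clear/narrow-like cells Hbegf measured 19.1 and 10.4 CPM in the caput, 42.6 and 61.5 CPM in the corpus, and 215 and 197 CPM in the cauda. P56 principal-like cells gave 30.2 and 31.2 CPM in the caput, 36.1 and 32.9 CPM in the corpus, and 91.4 and 102 CPM in the cauda. P56 endothelial-like cells gave 48.3 and 79.0 CPM in the caput and 273 and 214 CPM in the cauda. In every one of these populations both P56 cauda libraries lay above both P56 caput libraries. An Hbegf UMI was found in 81.3% and 84.7% of basal-like cells of the P56 cauda, and in 8 of the 38 basal-like cells of the P42 cauda.

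**Figure D3:**
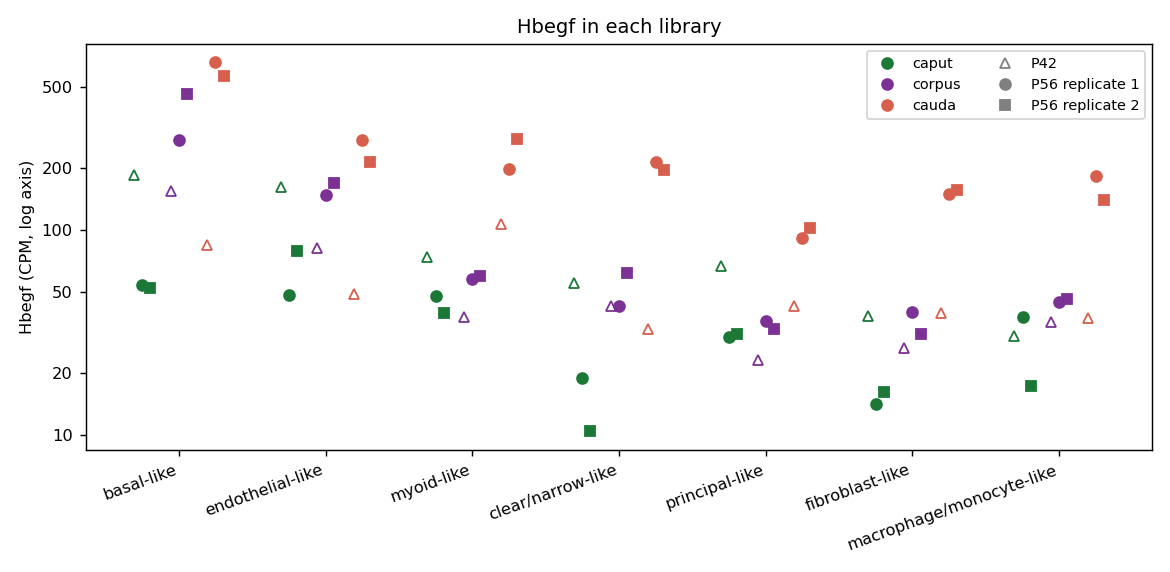
Hbegf in 7 cell populations, 1 point per library, on a logarithmic CPM axis. Colour gives the segment, open triangles are P42, circles P56 replicate 1, and squares P56 replicate 2. At P56 the cauda points are the highest in every population shown, and at P42 the cauda points of basal-like cells (84.7 CPM) and endothelial-like cells (48.7 CPM) lie below the caput points (185 and 162 CPM).

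Of the receptors, Erbb2 and Erbb3 were lowest in the caput. In principal-like cells Erbb2 measured 3.58, 2.30, and 3.74 CPM in the caput, 13.1, 9.0, and 10.4 CPM in the corpus, and 16.1, 8.69, and 11.4 CPM in the cauda. The caput did not overlap with the other segments, which overlapped with each other, and the log2 difference between cauda and caput was 2.11 (SE 0.161, adjusted p = 7.17e-05). Erbb3 measured 12.4, 8.87, and 9.56 CPM in the caput, 23.4, 16.4, and 15.6 CPM in the corpus, and 26.6, 17.7, and 25.8 CPM in the cauda of the same cells (log2 difference 1.41, SE 0.196, adjusted p = 0.00190). Both were also called in basal-like cells, with a log2 difference of 1.81 (SE 0.495, adjusted p = 0.0489) for Erbb2 and 1.16 (SE 0.321, adjusted p = 0.0435) for Erbb3, but the adjusted p was 0.185 and 0.126 with DESeq2 and 0.141 and 0.142 with TMM factors set to 1. With mitochondrial genes left out of the counts, the log2 difference in principal-like cells was 2.12 for Erbb2 and 1.42 for Erbb3, and the adjusted p of Erbb2 in basal-like cells was 0.0504. Without P56 replicate 1 the Erbb3 adjusted p was 0.0531 in principal-like and 0.427 in basal-like cells, and without P56 replicate 2 the basal-like adjusted p was 0.681 for Erbb2 and 0.783 for Erbb3. In clear/narrow-like cells Erbb3 had an adjusted p of 0.0269 with a log2 difference of 0.99, just under the fold required. In principal-like cells Erbb2 was also called without P56 replicate 1 (adjusted p = 0.0100) and without P56 replicate 2 (adjusted p = 0.00426).

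Erbb4 had few UMIs, and the corpus was its highest segment. In principal-like cells it measured 0.0691, 0.123, and 0.0415 CPM in the caput, 1.19, 1.30, and 1.60 CPM in the corpus, and 0.423, 0.300, and 0.334 CPM in the cauda. A UMI was found in 1, 3, and 1 cells of the caput, 9, 20, and 17 of the corpus, and 1, 5, and 5 of the cauda. In the P42 pool, cauda and caput thus rest on 1 cell each, and their order is not read. The corpus did not overlap with the other segments, and the log2 difference between corpus and caput was 4.09 (SE 0.547, adjusted p = 0.00142). It was called without either P56 replicate (adjusted p = 0.0383 and 0.0371), and with the direct marker gate it was too low to be tested. Egf was likewise highest in the corpus of the same cells.

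Egfr depended on the cell type. In basal-like cells it measured 54.2, 25.4, and 35.2 CPM in the caput, 58.8, 22.8, and 19.7 CPM in the corpus, and 32.6, 22.2, and 23.9 CPM in the cauda. The segments overlapped there, with a log2 difference of 0.07 (SE 0.222, adjusted p = 0.968). In principal-like cells the level was low, at 6.68, 2.34, and 2.7 CPM in the caput, 5.84, 1.84, and 0.977 CPM in the corpus, and 20.9, 2.64, and 3.79 CPM in the cauda, and the log2 difference between cauda and corpus was 1.52 (SE 0.299, adjusted p = 0.00838). The highest value, 20.9 CPM, belonged to the P42 cauda library with the raised fibroblast markers. Without the P42 corpus and cauda libraries the log2 difference was 1.36 (adjusted p = 0.0120), without P56 replicate 2 the adjusted p was 0.0658, and without the block for pools it was 0.164. In fibroblast-like cells, where Egfr was as high as in basal-like cells, no segment difference was called (log2 difference 0.64, adjusted p = 0.675).

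The segments were held by different clusters of principal-like cells. Caput cells fell mostly into clusters of their own, and P56 corpus and P56 cauda cells into others. A cluster with a median of 2044.5 UMIs per cell held 73.5% of P42 corpus and 98.1% of P42 cauda principal-like cells. A further 14.4% and 9.83% of the P42 corpus cells lay in the clusters of the P56 corpus. Basal-like and clear/narrow-like cells of the caput likewise mostly formed clusters apart from those of the corpus and cauda. A separate cluster held 68.9% of the P42 corpus and 83.7% of the P42 cauda clear/narrow-like cells. Those of the P56 corpus and cauda fell almost wholly into another.

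**Figure D4:**
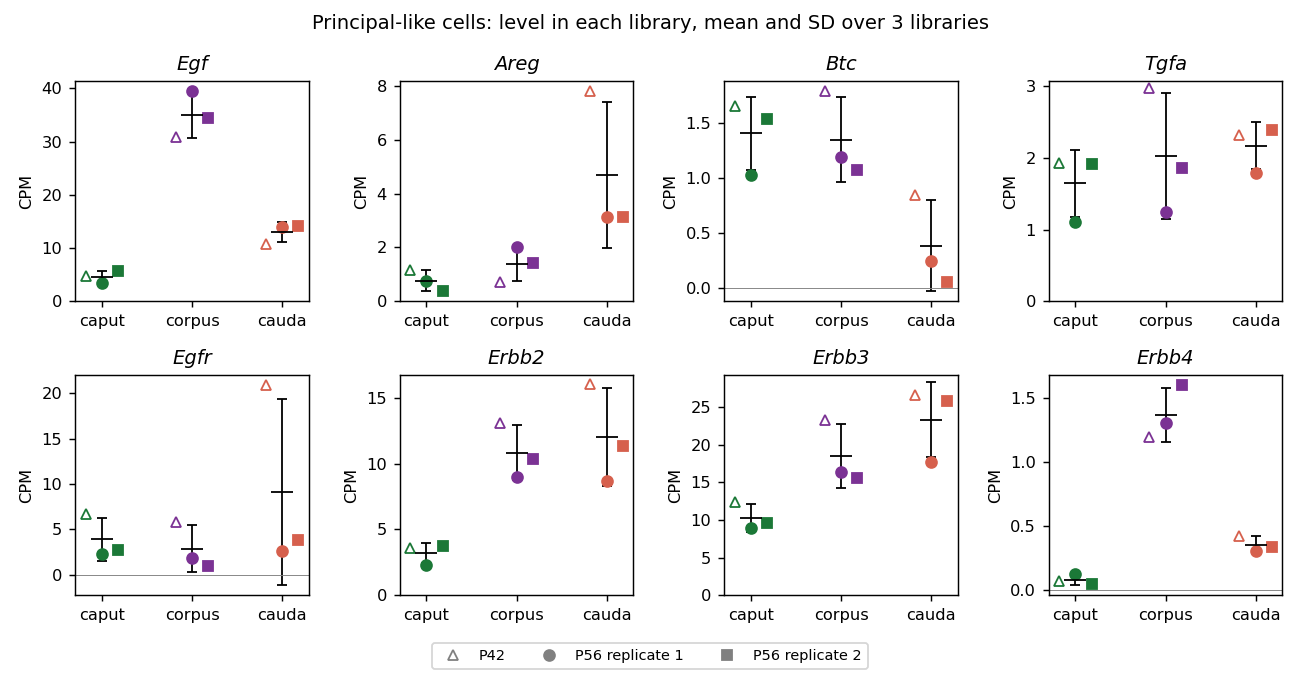
8 members in principal-like cells, 1 panel per gene, with CPM on the vertical axis and the segments on the horizontal axis. Points are libraries and bars give the mean ± SD over 3 libraries. Egf is highest in the corpus, Erbb2 lowest in the caput, and Areg highest in the cauda, while Egfr carries 1 high P42 cauda point at 20.9 CPM.

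The promoters of 3 ligands are shown because their levels peaked in different segments, Areg in the cauda and Egf in the corpus of principal-like cells, and Btc in the caput of clear/narrow-like cells. RefSeq promoter windows on GRCm38.p6, the build named for the deposited data, were found for 7 of the 10 members. Each line below gives the 250 bases upstream of the annotated start, 5′ to 3′ on the gene's strand, for Areg at chr5:91139349-91139598 (plus strand), Egf at chr3:129755323-129755572 (minus strand), and Btc at chr5:91402995-91403244 (minus strand). RefSeq lists 2 windows for Egf, and the one at the annotated start of the gene is shown. Capitals mark the motifs found.
Areg: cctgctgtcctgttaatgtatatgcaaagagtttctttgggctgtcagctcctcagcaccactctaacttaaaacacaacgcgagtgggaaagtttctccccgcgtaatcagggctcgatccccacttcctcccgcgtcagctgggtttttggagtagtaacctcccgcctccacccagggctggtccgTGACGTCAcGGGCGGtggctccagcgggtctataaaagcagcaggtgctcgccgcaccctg
Egf: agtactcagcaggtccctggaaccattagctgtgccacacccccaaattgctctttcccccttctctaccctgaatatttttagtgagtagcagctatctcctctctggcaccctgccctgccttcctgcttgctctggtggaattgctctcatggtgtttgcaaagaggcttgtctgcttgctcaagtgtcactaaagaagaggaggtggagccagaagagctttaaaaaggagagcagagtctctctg
Btc: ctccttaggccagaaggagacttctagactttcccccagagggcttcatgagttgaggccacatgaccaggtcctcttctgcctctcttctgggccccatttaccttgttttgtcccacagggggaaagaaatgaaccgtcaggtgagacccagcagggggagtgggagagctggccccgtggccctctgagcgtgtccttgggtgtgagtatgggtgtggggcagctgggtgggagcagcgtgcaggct

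Both strands of these upstream windows were searched for 4 motifs, the cAMP response element TGACGTCA, the AP-1 site TGANTCA, the GC box GGGCGG, and the steroid receptor motif AGAACA. The Areg window held 1 cAMP response element that starts 61 bases upstream of the start and 1 GC box that starts 52 bases upstream, and these 2 did not overlap. Of 32851 windows of the same length, 1.55% held the cAMP response element and 32.7% the GC box. The windows of Egf and Btc held none of the 4 motifs, and neither did those of Erbb2 and Erbb4. The Tgfa window held 2 GC boxes and the Egfr window 1. The Erbb4 window lies wholly, and the Tgfa window partly, inside the annotated gene. The AP-1 site was in 6.75% and the steroid receptor motif in 16.1% of all windows and in none of the 7. A match is a description of letters and not of a bound site.

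The genes themselves lie on chromosomes 18 (Hbegf, 36504927-36515805), 5 (Ereg, 91074617-91093649; Areg, 91139599-91148432; Btc, 91357261-91402994), 6 (Tgfa, 86195038-86275744), 3 (Egf, 129677574-129755322), 11 (Egfr, 16752203-16913907, and Erbb2, 98412484-98437716), 10 (Erbb3, 128567523-128589635), and 1 (Erbb4, 68031884-69108576) of GRCm38.p6. Areg and Btc lie within this cluster on chromosome 5, and in principal-like cells the cauda was the highest segment for Areg and the lowest for Btc.

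The second comparison asked how the family differs between P42 and P56. P42 had 1 library per segment, which was assumed to vary like the P56 libraries, and the difference was first averaged over the segments. The 3 P42 libraries come from 1 pool of mice and libraries of 1 pool deviate together, but the test of the averaged difference counts them as separate samples, so that its p-values are too small. In all cells 3 of 10 members were called (19.7% of all genes tested), in principal-like cells 1 of 9 (10.8%), and in basal-like cells 1 of 8 (7.39%). The scaling matters here. Without TMM factors the median log2 difference of all genes tested was -0.56 in all cells, -0.50 in principal-like, and -0.39 in basal-like cells, and with them it was 0.02, 0.04, and 0.21, a shift of -0.58, -0.54, and -0.60. Ratios of the CPM values given here are thus lower at P56 than the fitted folds.

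Egfr was lower at P56 in all cells and in principal-like cells. In all cells it measured 13.2 CPM at P42 and 4.41 and 6.72 CPM at P56 in the caput, 18.8 against 4.86 and 3.29 CPM in the corpus, and 41.9 against 8.28 and 9.19 CPM in the cauda. P42 was higher in each segment, with a fitted log2 difference of -1.32 (SE 0.133, adjusted p = 0.000159). Fibroblast-like cells, which are high in Egfr, were also more frequent at P42. Their share was 6.49% against 1.61% and 1.06% in the caput, 14.3% against 5.58% and 4.72% in the corpus, and 30.5% against 9.09% and 7.41% in the cauda. The part of this cell mix in the difference was not tested. In principal-like cells the log2 difference was -1.49 (SE 0.188, adjusted p = 0.000542). Within segments it was -1.11 in the caput (adjusted p = 0.134), -1.54 in the corpus (adjusted p = 0.0557), and -1.82 in the cauda (adjusted p = 0.00161). In basal-like cells, where Egfr was highest, the log2 difference was -0.33 (SE 0.237, adjusted p = 0.433). Summed fibroblast markers in the principal-like cells were 631, 1377, and 14411 CPM in the P42 caput, corpus, and cauda against 144 to 435 CPM at P56, and their part in the Egfr difference was not tested. Without the P42 corpus and cauda libraries, which leaves the caput alone, the log2 difference was -0.93 in all cells (adjusted p = 0.0734) and -1.11 in principal-like cells (adjusted p = 0.144).

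Egf was higher at P56 in all cells, with a fitted log2 difference of 1.32 (SE 0.134, adjusted p = 0.000162). It measured 3.62 CPM at P42 and 3.40 and 5.09 CPM at P56 in the caput, 18.7 against 33.6 and 26.2 CPM in the corpus, and 4.62 against 10.5 and 12.1 CPM in the cauda. The ages overlapped in the caput and not in the corpus and cauda. In principal-like cells, which hold most of its UMIs, the fitted log2 difference was 0.73 (SE 0.135, adjusted p = 0.00343), under the fold required, and the CPM at P42 and P56 differed by less (log2 ratio -0.08, 0.26, and 0.38 in caput, corpus, and cauda). Without the P42 corpus and cauda libraries the log2 difference in all cells was 0.55 (adjusted p = 0.186), and with TMM factors set to 1 it was 0.73, under the fold required.

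The age calls rest on few libraries. With 1 P56 replicate left out, in a fit of segment and age without an interaction, none of the members was called in all cells, principal-like, or basal-like cells, and in all cells and principal-like cells no gene at all was called. The adjusted p in all cells was then 0.166 and 0.121 for Egf, 0.162 and 0.0693 for Egfr, and 0.402 and 0.419 for Hbegf (without P56 replicate 1 and 2).

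Hbegf differed between P42 and P56 libraries in opposite directions along the duct. Each segment had 1 P42 library, so that a property of this library and the age cannot be told apart. The P42 cauda level of basal-like cells rests on 38 cells. In basal-like cells the caput was at 185 CPM at P42 and 53.9 and 52.2 CPM at P56, the corpus at 154 against 276 and 459 CPM, and the cauda at 84.7 against 656 and 565 CPM. The caput was thus lower and the corpus and cauda were higher at P56. The fitted log2 difference was -1.48 in the caput (SE 0.273, adjusted p = 0.00630; 2.4% of all genes called), 1.82 in the corpus (SE 0.305, adjusted p = 0.00289; 2.98%), and 3.80 in the cauda (SE 0.432, adjusted p = 2.54e-05; 10.3%). The ratio of the CPM values was 0.287, 2.38, and 7.21, in the same directions. The test that the age difference differs between segments gave an adjusted p of 5.57e-05 for Hbegf, the only one of 8 members so called in basal-like cells (2.64% of all genes).

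Principal-like cells showed the same directions with smaller steps. Hbegf measured 66.7 CPM at P42 and 30.2 and 31.2 CPM at P56 in the caput, 23.2 against 36.1 and 32.9 CPM in the corpus, and 42.7 against 91.4 and 102 CPM in the cauda. The log2 difference was -0.82 in the caput (adjusted p = 0.0277, under the fold required; 1.02% of all genes called and 0 of 9 members, with an unadjusted p of 0.000155 for Hbegf and 0.00478 for Egfr), 1.03 in the corpus (adjusted p = 0.0109; 1 of 9 members and 2.61% of all genes called), and 2.06 in the cauda (adjusted p = 3.39e-05; 3 of 9 members and 23.0% of all genes called). The other members called in the cauda were Egf (log2 difference 1.26, adjusted p = 0.00423) and Egfr (-1.82). The interaction was called for Hbegf alone among 9 members (adjusted p = 0.000586; 12.9% of all genes).

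In all cells the age difference of Hbegf was -0.92 in the caput (adjusted p = 0.0486, under the fold required), where 0 of 10 members and 3.49% of all genes were called, and Hbegf, Areg, Egfr, and Egf had an unadjusted p of 0.00197, 0.00437, 0.00522, and 0.0359 in edgeR. In the corpus 3 of 10 members were called (10.6% of all genes), Hbegf at 1.31 (adjusted p = 0.00914), Egf at 1.31, and Egfr at -1.57. Basal-like cells, where Hbegf was highest, were 0.843% of cauda cells at P42 and 22.4% and 20.7% at P56. In sums of all cells, this shift and a change per cell cannot be told apart. In the cauda 5 of 10 were called (32.3%), Hbegf at 3.28 (adjusted p = 5.66e-05), Egf at 2.04, Erbb3 at 1.41, Tgfa at 1.33, and Egfr at -1.50. The averaged Hbegf difference of 1.22 (SE 0.129, adjusted p = 0.000194) averages over these opposite steps, as does that of 1.38 (SE 0.203, adjusted p = 0.000231) in basal-like cells, and without the P42 corpus and cauda libraries it became -0.97 in all cells and -1.48 in basal-like cells. With TMM factors set to 1 the averaged differences were 0.62 and 0.77, under the fold required, while Areg in all cells (log2 difference -1.28, adjusted p = 0.00181) and Btc in principal-like cells (log2 difference -1.17, adjusted p = 0.0473) were then called lower at P56. The called members of all cells thus went from 2 higher and 1 lower at P56 to 2 lower. Interaction tests in all cells called Hbegf (adjusted p = 0.00490) and Erbb3 (adjusted p = 0.0350, and 0.0957 with TMM factors set to 1), 2 of 10 members against 14.2% of all genes. With the pools entered as a replicate block this count was 4, with Egf and Tgfa added, and for the segment difference in all cells the count without the block was 3, with Btc and Egfr lost. The shares of all genes called in these other fits are not given here, so these counts are not set against them.

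Hbegf is itself known as an early response gene, and the summed level of 16 immediate early and dissociation-associated genes was therefore set beside it. In basal-like cells it was 17857 CPM at P42 and 5435 and 6154 CPM at P56 in the caput, 15909 against 11657 and 12355 CPM in the corpus, and 18500 against 12271 and 11535 CPM in the cauda. It was higher at P42 in every segment, whereas Hbegf was higher at P42 in the caput and at P56 in the corpus and cauda. In principal-like cells the sum was 6050 against 1483 and 1532 CPM in the caput, 4516 against 5194 and 4913 CPM in the corpus, and 10124 against 5452 and 5398 CPM in the cauda. Gene by gene, the test that the age difference differs between segments called 6 of these 16 genes in basal-like cells (2.64% of all genes), 11 of 15 tested in principal-like cells (12.9%), and 10 of 16 in all cells (14.2%). Relative to the caput, the fitted age difference of each called gene moved toward P56 in the corpus or cauda, the direction in which that of Hbegf moved. The part of this response in the Hbegf values was not tested.

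The rest of the pathway was read from lists of genes named for their role. Among the other ErbB ligands, 2 of 3 tested in principal-like cells were called between segments, against 33.8% of all genes. Nrg4, a neuregulin that binds Erbb4, measured 11.7 ± 1.30 CPM (SD, n = 3) in the caput and at most 1.19 CPM in any corpus or cauda library (log2 difference 5.08, SE 0.415, adjusted p = 3.73e-05). Its caput level stood opposite to Erbb2 and Erbb3, which were lowest there, and to Erbb4, which was lower there than in the corpus. Nrg1 was highest in the cauda (log2 difference 1.90, adjusted p = 0.0396), but its adjusted p was 0.0626 with DESeq2, 0.0567 with TMM factors set to 1, and 0.393 and 0.172 without P56 replicate 1 and 2. Nrg4 was also called in clear/narrow-like cells (log2 difference 4.83, adjusted p = 0.0196), as 1 of 1 tested, against 11.8% of all genes. It was not called there without P56 replicate 1 or 2 (adjusted p = 0.19 and 0.188).

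Of the sheddases and their cofactors, 3 of 7 were called in principal-like cells, against 33.8% of all genes. Rhbdf2, an inactive rhomboid that brings the sheddase Adam17 to the surface, measured 4.96 ± 1.93 CPM in the caput and 0.466 CPM on average in the corpus (log2 difference 3.45, adjusted p = 0.000553). Its relative Rhbdf1 was highest in the corpus (log2 difference between corpus and cauda 1.32, adjusted p = 0.0139), a call that was lost without the block for pools (adjusted p = 0.133) and without P56 replicate 1 or 2 (adjusted p = 0.181 and 0.0909). The sheddase Adam10 measured 93.3 ± 12.2 CPM in the caput against 36.8 CPM in the corpus (log2 difference 1.24, adjusted p = 0.00140).

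Of 21 adaptors and RAS-ERK transducers, 2 were called in principal-like cells, against 33.8% of all genes, and both were highest in the caput. Plcg1, a phospholipase recruited by Egfr, measured 35.5 ± 12.4 CPM in the caput and 6.70 CPM on average in the corpus (log2 difference between caput and cauda 2.56, adjusted p = 0.00104), and Araf had a log2 difference of 1.30 (adjusted p = 0.00228, and 0.0636 without P56 replicate 1). Among the negative regulators 7 of 17 were called (33.8% of all genes), and the caput was the highest segment of 5. The ERK phosphatase Dusp6 measured 91.6 ± 43.1 CPM in the caput against 11.7 CPM in the corpus (log2 difference 2.82, adjusted p = 8.76e-05). Spry1 (log2 difference 2.57, adjusted p = 0.000220) and Spry4 (log2 difference 2.55, adjusted p = 0.00412), inhibitors of the same cascade, were highest in the caput as well, and without P56 replicate 1 and 2 the adjusted p of Spry4 was 0.0850 and 0.0531. In basal-like cells 2 of 21 adaptors and 4 of 15 negative regulators were called, against 16.5% of all genes, among them Dusp5, highest in the cauda (log2 difference 1.85, adjusted p = 0.00596), and Ptpn1, highest in the caput (log2 difference 1.27, adjusted p = 0.000486). Without P56 replicate 1 and 2 the adjusted p of Dusp5 was 0.267 and 0.119, with the direct marker gate it was 0.0630, and that of Ptpn1 was 0.0956 without P56 replicate 1.

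Of the early response genes, 13 of 15 tested were called between segments in principal-like cells, 11 of them highest in the cauda, against 33.8% of all genes called, with Atf3 at a log2 difference of 3.32 (adjusted p = 0.0283), Fosb at 2.83 (adjusted p = 0.0367), and Hspa1b at 2.35 (adjusted p = 0.00571). Without P56 replicate 1 and 2 the adjusted p was 0.215 and 0.168 for Atf3 and 0.256 and 0.159 for Fosb, and without P56 replicate 1 it was 0.0855 for Hspa1b. In basal-like cells 6 of 15 were called (16.5% of all genes). Fibroblast-like cells had 9 of 15 called, 7 of them highest in the cauda (6.67% of all genes). All cells had 10 of 15 called, 9 of them highest in the cauda (24.7%). Clear/narrow-like cells had 1 of 15 (11.8%) and macrophage/monocyte-like cells 2 of 15 (6.96%).

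**Figure D5:**
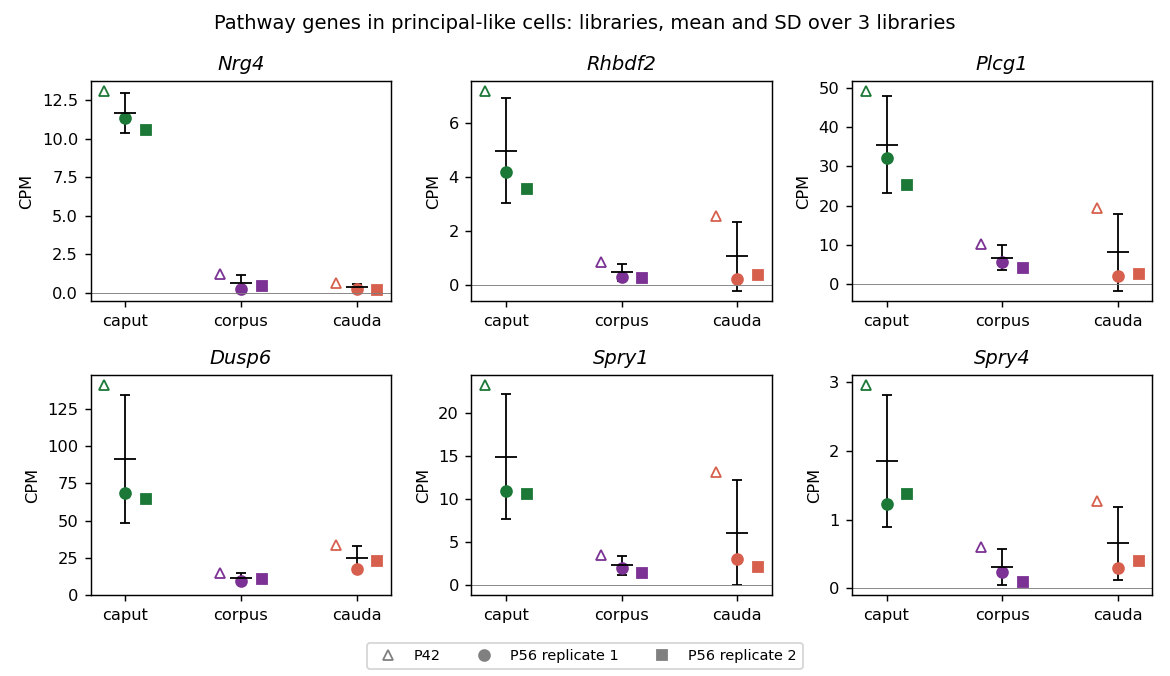
Pathway genes in principal-like cells, 1 panel per gene, with CPM on the vertical axis and segments on the horizontal axis. Points are libraries and bars give the mean ± SD over 3 libraries. All 6, Nrg4, Rhbdf2, Plcg1, Dusp6, Spry1, and Spry4, are highest in the caput, with Nrg4 at 11.7 CPM there and at most 1.19 CPM elsewhere.

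Between ages, 4 of 8 sheddases and cofactors, 3 of 21 adaptors, 2 of 17 negative regulators, and 2 of 15 early response genes were called in principal-like cells, against 10.8% of all genes, so that only the first share lay well above that of all genes. The genes called were lower at P56. In all cells 7 of 16 early response genes were called, each lower at P56 (19.7% of all genes). Adam19, a metalloprotease of stromal cells among others, had a log2 difference of -2.80 (adjusted p = 0.000614), Rhbdf2 of -1.26 (adjusted p = 0.0153), the adaptor Gab2 of -1.18 (adjusted p = 0.00589), and Lrig3 of -1.80 (adjusted p = 0.00392). None of these 4 was called without the P42 corpus and cauda libraries, where the log2 difference was -0.94 for Adam19 (adjusted p = 0.529), -0.59 for Rhbdf2 (adjusted p = 0.355), 0.17 for Gab2 (adjusted p = 0.869), and -1.56 for Lrig3 (adjusted p = 0.227), nor with 1 P56 replicate left out. Dusp1, an early response gene, had a log2 difference of -2.13 in principal-like cells (adjusted p = 3.99e-06, edgeR). Without the P42 corpus and cauda libraries it was -1.91, with -2.37 in all cells and -1.63 in basal-like cells. Sh3kbp1, Plcg1, and Pik3r1 had -1.30, -1.08, and -1.01 in principal-like cells, and -0.34, -0.47, and -0.56 without those libraries. Adam12 and Adam19 were near 0 in P56 principal-like cells and reached 9.09 and 10.2 CPM in the P42 cauda, the library with the raised fibroblast markers. In basal-like cells Nrg2 was lower at P56 (log2 difference -1.83, adjusted p = 0.0136), as 1 of 3 other ligands tested, against 7.39% of all genes. The call was lost with DESeq2 (adjusted p = 0.0609), at clustering resolution 2 (adjusted p = 0.0714), in a fit without interaction (adjusted p = 0.0927), with 1 P56 replicate left out (adjusted p = 0.289 and 0.187), and without the P42 corpus and cauda libraries (log2 difference -0.75, adjusted p = 0.569).

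Across 28 means of a population in a segment, the genes most like each member by Pearson's r of log2(CPM + 1), among 15289 genes, were found as a description. The points share libraries and free RNA. Egf was most like Mkrn1 (r = 0.95), Defb37 (0.94), and Mgarp (0.92), and Hbegf like Arl13b (0.83) and Eif1a (0.81). For Egfr these were Ugdh (0.86), Efs (0.82), and Cpq (0.80), and for Erbb2 Cox6c2 (0.90), Pde8b (0.88), and Shmt2 (0.83). Tgfa was most like Exoc3l4 (0.88), Jade1 (0.83), and Mmp15 (0.83), and Btc like Npat (0.80), Ube2e3 (0.78), and Kdm5a (0.77). Areg and Erbb3 had no gene above 0.76.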

How the data were processed

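scRNA-seq libraries of 9 samples were analysed from 1 deposited table of raw UMI counts. The authors trimmed reads with fastp, aligned them with STAR 2.7.3a to GRCm38.p6, and took the UMI count of each gene and barcode from UMI-tools, and the deposited counts were not normalised. All values in the table were whole numbers (44869 barcodes, 307987941 UMIs). The 10 members, the gene lists, and the tests were chosen with earlier results of these data known.

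Cells with 300 to 4000 genes, at most 20000 UMIs, and less than 50% mitochondrial UMIs were kept (42087), and a globin-rich cluster of 690 cells was removed. Scrublet called 3 cells (0.0072%), so it did not work here, and doublets were kept. Its 5% highest scores per library were left out in an alternative. Cells were clustered with scanpy 1.11.5 and leidenalg 0.10.2 at resolution 1 (25 clusters) without the members. Clusters were named from fixed marker lists, and the scoring rule of the names (markers up by 1.5, leading genes, and depth) was set after the clusters were seen.

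UMIs were summed per library and population (at least 10 cells per library) and tested with edgeR 4.0.16 (R 4.3.3; filterByExpr, TMM, quasi-likelihood F test, Benjamini-Hochberg adjustment over all genes tested). Segments were compared with the pool as a block, since segments of 1 pool share their mice. The pairing was examined by the correlation of deviations from segment means, which was 0.15 to 0.74 for the 9 library pairs of the same pool and -0.67 to 0.53 for the 18 others. All negative values belonged to pairs of P42 with P56, where pool and age cannot be told apart. Among P56 libraries alone, pairs of the same pool (0.15 to 0.62) and of different pools (0.02 to 0.53) overlapped. Ages were compared with 1 mean per segment and age, and the lone P42 libraries were assumed to vary like those of P56. The calling script was tested on simulated data. Pools are the replicates. P-values of segment differences measure how far the segment differences vary between pools. This variation includes that between ages, since 1 pool is P42 and the others are P56. P-values of age differences count libraries of 1 pool as separate samples and are too small. Intervals are exact binomial (95%).

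Named were all members and, per list and comparison, up to 3 called genes with the largest change that had 1 direction in all pools, and the 3 most similar genes of each member with at least 200 UMIs, 1 of which is not reported here. Alternatives were DESeq2 1.42.0, no filter, TMM factors set to 1, no mitochondrial genes, the block, resolution 2, a direct marker gate, and omission of pools. Omission of the P42 corpus and cauda libraries, and of a P56 replicate in a fit without interaction, was added after seeing the data. Promoter sequences were taken from RefSeq (GRCm38.p6).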

Additional observations from a re-analysis of the deposited data

Results flagged for a closer look

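The age difference of Hbegf differed between the segments by the test of the interaction itself, in basal-like cells (adjusted p = 5.57e-05), principal-like cells (adjusted p = 0.000586), and all cells (adjusted p = 0.00490, edgeR). The basal-like caput was lower at P56 than at P42 in 2 of 2 P56 libraries (53.9 and 52.2 against 185 CPM), and the basal-like corpus and cauda were higher in 2 of 2 libraries each. P42 had 1 library per segment, so a property of a single P42 library and the age cannot be told apart.

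The age difference of Erbb3 differed between the segments in all cells (adjusted p = 0.0350). The fitted log2 difference was -0.12 for caput, 0.37 for corpus, and 1.41 for cauda, and the log2 ratio of the CPM values was -0.50, -0.27, and 0.65. The P42 cauda library, which sets the last value, held 30.5% fibroblast-like cells, and in principal-like cells the interaction was not called (adjusted p = 0.217).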

How the results depend on the processing

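Of the counts of called members and the levels recomputed under alternatives, 99 values stayed within 1.5 times the count or within the spread of the level and 45 moved. For single genes and levels, 1423 values kept their direction and call, 221 lost and 57 gained a call, 51 reversed, and 11 moved. The cause of these changes was not tested, apart from fewer libraries or fewer genes tested where these were left out. Shares of all genes called under each alternative are not given beside the counts below.

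Segment counts were, in all cells, 5, without the replicate block 3, without single pools 0 to 8, and without the P42 corpus and cauda libraries 8. In principal-like cells the count was 7, with the direct gate 4, and without single pools 4 to 8. In basal-like cells it was 3, with DESeq2 1, unfiltered 5, with TMM factors of 1 1, and without single pools 0 to 4. In clear/narrow-like cells it was 2, unfiltered 4, with TMM factors of 1 1, with the gate 5, and without single pools 0 to 3. In fibroblast-like cells it was 0, with DESeq2, unfiltered, at resolution 2, with the gate, and without the P42 corpus and cauda libraries 2, and without single pools 0 to 2. In macrophage/monocyte-like cells it was 0, with DESeq2, the gate, and without those libraries 2, unfiltered 4, and without single pools 0 to 3.

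Age counts were 3 in all cells and 0 in the caput alone or without a P56 replicate. In principal-like cells the count was 1, with TMM factors of 1 or the gate 2, and in the caput alone or without a P56 replicate 0. In basal-like cells it was 1, and with TMM factors of 1, without the interaction, and without a P56 replicate 0. Interaction counts in all cells were 2, unfiltered 4, with TMM factors of 1 1, and with the replicate block 4, and in principal-like cells 1, and unfiltered or at resolution 2 2. The block changed no other count by more than 1.5 times. Leaving out a P56 replicate was not possible for the interaction, since no residual degree of freedom remains.

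The reversals include called age differences of Hbegf (1.22 in all cells and 1.38 in basal-like cells) and Gab2 (-1.18 in principal-like cells), which turned in the caput alone. With TMM factors of 1 the segment difference became -0.00697 for Tgfa in all cells and -0.15 for Erbb3 in fibroblast-like cells, and without single pools it ranged from -0.16 to 0.84 for Tgfa in all cells, from -0.00685 to 0.62 for Tgfa in clear/narrow-like, from -0.092 to 0.24 for Egfr in basal-like, and from -0.24 to 0.61 for Erbb3 in fibroblast-like cells. At resolution 2 Egfr in basal-like cells was -0.027. Age differences with TMM factors of 1 were -0.12 for Erbb2, -0.041 for Erbb3, -0.054 for Erbb4, and -0.46 for Tgfa in all cells, -0.37 for Areg, -0.46 for Erbb2, -0.42 for Erbb3, and -0.49 for Tgfa in principal-like cells, and -0.42 for Areg in basal-like cells. In the caput alone they were -0.17 for Erbb3, -1.44 for Erbb4, -0.97 for Hbegf, and -0.64 for Tgfa in all cells, -0.76 for Areg, -0.13 for Erbb3, 0.17 for Gab2, -0.82 for Hbegf, and -0.068 for Tgfa in principal-like cells, and -0.47 for Egf, -0.28 for Erbb3, -1.48 for Hbegf, and -0.41 for Tgfa in basal-like cells. With the replicate block they were -0.041 for Tgfa in all cells, and -0.10 for Erbb2 and -0.22 for Tgfa in principal-like cells. For age differences this block goes by replicate number. The P42 libraries share that number with P56 replicate 1 although their mice differ, so it does not pair animals across ages. Without a P56 replicate they fell to -0.053 for Tgfa in all cells, -0.24 for Areg, -0.11 for Erbb2, and -0.26 for Tgfa in principal-like, and -0.24 for Areg in basal-like cells, and without the interaction Areg in principal-like cells was -0.018. At resolution 2 Areg and Tgfa in principal-like cells were -0.26 and -0.033. With the gate the age difference was 0.36 for Btc, -0.15 for Erbb2, and -0.11 for Erbb3 in principal-like and -0.063 for Areg in basal-like cells, and the interaction was 3.92 for Btc, -0.077 for Egf, 0.26 for Egfr, -0.32 for Erbb2, and -0.14 for Erbb3 in principal-like and 1.49 for Btc in basal-like cells. With TMM factors of 1 the Erbb2 interaction in principal-like cells was -0.43.

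Depth limits Ereg, Erbb4, Areg, and Btc, and the 38 basal-like cells of the P42 cauda.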
